A study of Mus musculus with 6 samples.

Results

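The Skint genes, Skint1 to Skint10, were examined in esophagus from mice exposed to 4-nitroquinoline 1-oxide (4-NQO), a carcinogen, and later given DTA-1 or an isotype control antibody. The 10 genes were matched by symbol among the 54232 gene IDs of the count files. The members were chosen by their counts and CPM in the comparison of DTA-1 with isotype, so their levels and differences in that comparison are given as a description with no test.

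The DTA-1 group has 3 libraries from mice injected with DTA-1, an agonist antibody against GITR, a co-stimulatory receptor of T cells. The isotype group has 3 libraries from mice injected with the control antibody. All the mice shared the rest of the schedule: aged 8 weeks at the outset, they had 4-NQO at 100 µg/ml in their water for 16 weeks and plain water for the next 12 weeks, and received 10 µg of antibody 2 times a week over the last 2.5 weeks. The tissue was peeled, enriched for invading cells, minced and frozen the day after the last injection, and polyA RNA was sequenced. The labels name no strain, sex, transgene or deletion. Nothing in them shows whether 3 libraries stand for 3 mice, so the spread within a group may be partly technical, and p-values measure only that spread.

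Skint proteins are members of the butyrophilin-like branch of the immunoglobulin superfamily, with immunoglobulin-like domains outside the cell followed by membrane-spanning helices. Skint1, the founding member, is made by thymic epithelium and by keratinocytes of the skin, and mice that lack working Skint1 fail to select the gamma-delta T cells that populate the epidermis as dendritic epidermal T cells. Skint3 and Skint9 have been tied, in mouse skin, to signalling from wounded keratinocytes to those T cells. The other members are known mainly from their sequence relation to Skint1 and from their place beside it in the genome.

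The 10 genes lie in 1 cluster on mouse chromosome 4 (GRCm38), between 111919392 and 113999503, a stretch of 2080112 bases. From the low coordinate end the order is Skint8, Skint7, Skint1, Skint4 and Skint3 on the plus strand, Skint9 on the minus strand, Skint2 on the plus strand, and Skint10, Skint6 and Skint5 on the minus strand. The gene models of GENCODE M21 place Skint1 (ENSMUSG00000089773) at chr4:112006269-112029538, Skint3 (ENSMUSG00000070868) at chr4:112232245-112300468 and Skint4 (ENSMUSG00000055960) at chr4:112072016-112168076. In the longest coding sequences, aligned bases were identical over 91.25% of the shorter sequence between Skint7 and Skint8, 89.18% between Skint5 and Skint6, 86.46% between Skint9 and Skint10, and 78.14% between Skint3 and Skint4.

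Those likenesses bear on which read counts can be told apart. Of all windows of 50 bases in its transcripts, Skint1 shared none with any other gene, and the same held for Skint9 and Skint10. Skint3 shared 0.495% of its windows, all with Skint2, and Skint4 shared 0.185%, none of them with another member. Skint7 and Skint8 had 272 such windows in common and Skint5 and Skint6 had 175, so the split of reads within those 2 pairs is uncertain. Windows of Skint7 also occurred, on either strand, in transcripts of 505 genes outside the family, and windows of Skint8 in 330. Skint2 and Skint6 each shared windows with 1 gene outside it. Reads of these members may thus also be confused with those of other genes. Pseudogenes and an antisense gene overlap some members, and no source used here gives the strand setting of the counting.

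Promoter sequence is shown for the 3 members with most of the reads and for Skint5 and Skint6, because all 5 carry 1 shared run of letters just upstream of a start site. Each line is the 250 bases before a transcription start, from RefSeq on GRCm38.p6, read 5′ to 3′ on the gene's strand. Capitals mark the shared run AGTACTTGAGTAAT in every line and, in Skint1 alone, also the letters TATAAA. The Skint4 line also holds the reverse complement of those letters, TTTATA, left in lower case. The windows are chr4:112006019-112006268 for Skint1, chr4:112231995-112232244 for Skint3, chr4:112081220-112081469 for Skint4, chr4:113999504-113999753 for Skint5 and chr4:113286974-113287223 for Skint6. The Skint4 window is the second of 2 that RefSeq lists, and its start site lies 9454 bases inside the GENCODE gene model.
Skint1: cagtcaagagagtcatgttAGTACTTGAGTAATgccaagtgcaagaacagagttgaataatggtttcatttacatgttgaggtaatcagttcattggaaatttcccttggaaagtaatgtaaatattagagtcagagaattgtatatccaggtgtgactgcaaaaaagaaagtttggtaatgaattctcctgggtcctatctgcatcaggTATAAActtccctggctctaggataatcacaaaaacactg
Skint3: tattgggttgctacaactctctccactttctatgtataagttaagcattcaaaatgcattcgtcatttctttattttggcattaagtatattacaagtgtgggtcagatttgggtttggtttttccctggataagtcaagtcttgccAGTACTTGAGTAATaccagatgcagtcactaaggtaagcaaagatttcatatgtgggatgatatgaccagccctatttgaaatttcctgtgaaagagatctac
Skint4, second window: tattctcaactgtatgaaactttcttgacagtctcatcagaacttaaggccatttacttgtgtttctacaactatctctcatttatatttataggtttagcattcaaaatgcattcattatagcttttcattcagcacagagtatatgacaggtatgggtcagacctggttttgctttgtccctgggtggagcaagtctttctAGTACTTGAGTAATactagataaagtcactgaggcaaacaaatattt
Skint5: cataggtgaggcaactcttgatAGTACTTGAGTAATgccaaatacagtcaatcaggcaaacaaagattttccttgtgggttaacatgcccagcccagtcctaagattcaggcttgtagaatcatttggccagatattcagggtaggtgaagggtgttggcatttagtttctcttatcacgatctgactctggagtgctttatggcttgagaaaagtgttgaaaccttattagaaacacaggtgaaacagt
Skint6: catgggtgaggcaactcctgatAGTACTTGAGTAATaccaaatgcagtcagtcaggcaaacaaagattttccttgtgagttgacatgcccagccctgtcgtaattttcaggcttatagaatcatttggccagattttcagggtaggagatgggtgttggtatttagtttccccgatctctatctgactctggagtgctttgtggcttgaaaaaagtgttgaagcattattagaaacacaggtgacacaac

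The run of 14 letters begins at base -231 from the start site in Skint1, -103 in Skint3, -228 in both Skint5 and Skint6, and -47 in the second Skint4 window. It was picked after the sequences had been compared. It occurred, on either strand, in 5 of 32817 promoter windows of the RefSeq table, or 0.0152%, and these were the 5 Skint windows printed above. The first windows of the other 6 members, Skint4 included, did not hold these letters. The Skint5 and Skint6 windows were identical over 88.8% of their 250 bases.

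In the first windows of the 10 members, 3 motifs were searched on both strands. The TATA box letters TATAAA were present in 5 of the 10 (Skint1, Skint2, Skint7, Skint8 and Skint9), against 12.4% of all promoter windows. Their place varied: they began at base -40 in Skint1, -31 in Skint7 and -18 in Skint2. In Skint8 they began at -209, and in Skint9 at -177 and -130. The second Skint4 window printed above was not among these 10. The AP-1 letters TGANTCA were in none of the 10, against 6.75% of all windows. The grainyhead-like letters AACNGGTT were in Skint8 alone, against 1.78% of all windows. These matches describe letters in a window and are not mapped binding sites.

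The libraries held 23766069 to 23914043 counts in the DTA-1 group and 23147873 to 29065162 in the isotype group. Across 15763 genes tested, edgeR's quasi-likelihood test called 0 at a Benjamini-Hochberg adjusted p under 0.05, or 0% (2006 at an unadjusted p under 0.05), and DESeq2 called 180 of 16084, or 1.12%. Without DTA-1 replicate 1, edgeR called 601. That library stood apart in its squamous content: basal and esophageal differentiated squamous markers together took 3.08% of its counts, against 0.871% and 1.04% in DTA-1 replicates 2 and 3, and 4.07%, 5.17% and 4.29% in the isotype libraries. Levels below are CPM, counts scaled to 1000000 per library, on TMM-scaled library sizes, a scaling that sets libraries on a common footing from the bulk of their genes.

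In replicate order, Skint1 stood at 2.26, 2.07 and 0.984 CPM among the DTA-1 libraries, against 5.75, 5.54 and 5.88 CPM among the isotype libraries. The 3 isotype libraries lay close together and the groups did not overlap, with DTA-1 replicate 3 the lowest of all. The means were 1.77 ± 0.69 CPM with DTA-1 and 5.72 ± 0.169 CPM with isotype (SD, n = 3 each). The log2 fold change of DTA-1 over isotype was -1.69 ± 0.38 (SE). The raw counts behind these levels were 52, 44 and 23 reads with DTA-1 and 156, 147 and 163 reads with isotype.

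Skint3 was the member with most reads in all 6 libraries. It had 5.04, 4.05 and 4.58 CPM in the DTA-1 libraries, against 28.7, 16.2 and 12.0 CPM in the isotype libraries. No DTA-1 library reached the lowest isotype library, and isotype replicate 1 was the highest. Its means were 4.56 ± 0.496 CPM with DTA-1 and 19.0 ± 8.65 CPM with isotype (SD, n = 3 each), a log2 fold change of -2.06 ± 0.35 (SE). Here the spread lay in the isotype group, whereas for Skint1 it lay in the DTA-1 group.

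Skint4, which lies between Skint1 and Skint3 in the cluster, had 0.391, 0.612 and 0.556 CPM with DTA-1, against 3.10, 1.17 and 1.01 CPM with isotype. The groups did not overlap, and isotype replicate 1 again was the highest. The means were 0.520 ± 0.115 CPM with DTA-1 and 1.76 ± 1.16 CPM with isotype (SD, n = 3 each), and the log2 fold change was -1.75 ± 0.55 (SE). Without isotype replicate 1 it was -1.05. The counts were small, 9 to 13 reads in the DTA-1 libraries and 28 to 84 in the isotype libraries.

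**Figure D1:**
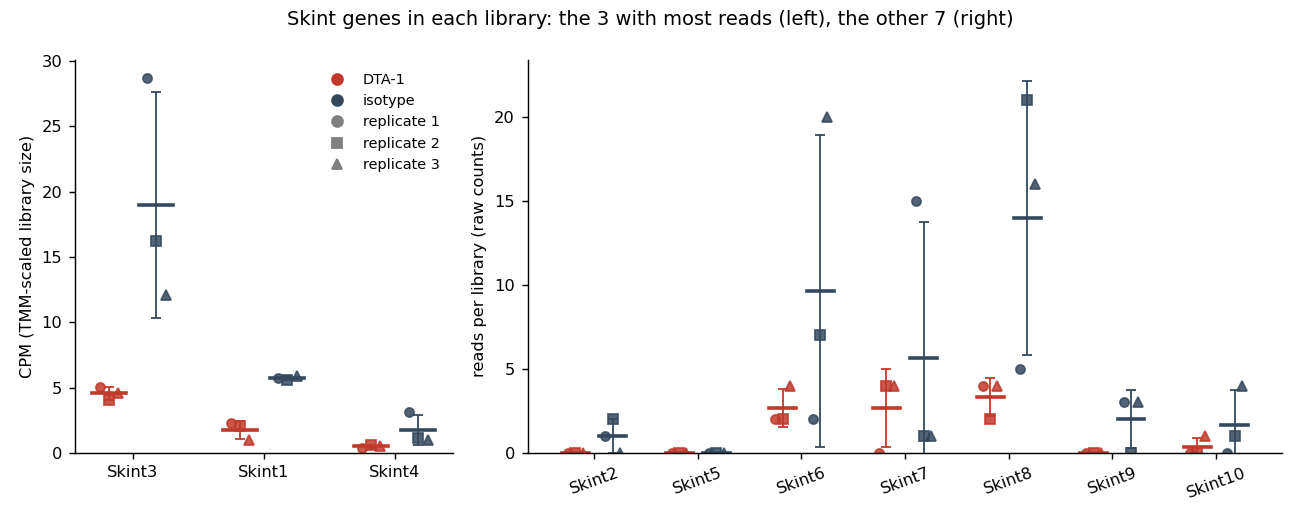
Skint levels in each library, as CPM on TMM-scaled library sizes for Skint3, Skint1 and Skint4 (left) and as raw reads for the other 7 members (right); points are libraries, bars are means and whiskers are SD (n = 3 each). The 3 members on the left have every DTA-1 library below every isotype library, and no library has more than 21 reads of any member on the right.

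The other 7 members together had 6, 8 and 13 reads in the DTA-1 libraries, against 26, 32 and 44 reads in the isotype libraries. Skint8 had 4, 2 and 4 reads with DTA-1 and 5, 21 and 16 with isotype. Its groups did not overlap in CPM either, though only narrowly, with 0.174 CPM in DTA-1 replicate 1 against 0.184 CPM in isotype replicate 1. The ratio of its pooled levels, DTA-1 over isotype, was 0.287, with an exact 95% interval of 0.128 to 0.580 that covers counting error only.

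Skint6 had 2, 2 and 4 reads with DTA-1 and 2, 7 and 20 with isotype. Its groups overlapped, and most of its isotype reads came from replicate 3. Skint7 had 0, 4 and 4 reads with DTA-1 and 15, 1 and 1 with isotype. Here 1 library, isotype replicate 1, decided the direction, since the other isotype libraries had fewer reads than DTA-1 replicates 2 and 3. The pooled ratios were 0.332 (counting interval 0.131 to 0.744) for Skint6 and 0.566 (0.212 to 1.38) for Skint7.

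Skint9 had no reads in any DTA-1 library and 3, 0 and 3 reads in the isotype libraries. A floor of 3 reads over the DTA-1 group would lie 1.66-fold below the isotype level of Skint9. No counting interval was made for it, so this sets no bound on the difference. Skint10 had 0, 0 and 1 reads with DTA-1 and 0, 1 and 4 with isotype, a pooled ratio of 0.241 whose counting interval ran from 0.00509 to 2.15. Skint2 had no reads with DTA-1 and 1, 2 and 0 reads with isotype, so no fold is given. Skint5 had 0 reads in all 6 libraries, which allows up to 0.0444 CPM over the DTA-1 group and 0.0369 CPM over the isotype group.

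Over the list, 9 of the 10 members had a lower mean CPM with DTA-1, where 52.7% of the 29228 genes with a read did, and the tenth, Skint5, had no reads. Without isotype replicate 1 the number was 8, with Skint7 on the other side. Only Skint1, Skint3 and Skint4 passed the filter on low counts, Skint4 only through its isotype levels. The groups did not overlap for these 3 and for Skint8, and among all genes tested 9.38% lay without overlap below isotype in the DTA-1 libraries and 8.6% above it. Ranked from the lowest log2 fold change upward, Skint3 was at place 72, Skint4 at 158 and Skint1 at 178 of 15763. These counts come from the comparison that the genes were chosen by, and nothing is read from them.

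Per kilobase of exon, the order of levels at the top was the same in both groups. With DTA-1, Skint3 had 1.19 ± 0.129, Skint1 0.588 ± 0.229 and Skint4 0.119 ± 0.0263 CPM per kilobase. With isotype, Skint3 had 4.94 ± 2.25, Skint1 1.90 ± 0.0560 and Skint4 0.402 ± 0.266 CPM per kilobase (SD, n = 3 each). Within each group the libraries of Skint3, Skint1 and Skint4 did not overlap one another. Below them Skint8 came next, at 0.0314 ± 0.00971 with DTA-1 and 0.111 ± 0.0662 with isotype. Its libraries overlapped those of Skint6 and Skint7 in both groups, so no order is given among the remaining members.

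The make-up of the family total was alike in the 2 groups. Skint1, Skint3 and Skint4 made up 96.7%, 94.7% and 91.7% of Skint reads in the DTA-1 libraries and 92.3% to 97.5% in the isotype libraries. Skint3 alone gave 57.0% to 68.6% of Skint reads with DTA-1 and 58.7% to 74.5% with isotype. The ratio of Skint3 to Skint1 reads was 2.23, 1.95 and 4.65 with DTA-1, against 4.99, 2.93 and 2.05 with isotype. It varied more between libraries of a group than between the groups, which overlapped.

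**Figure D2:**
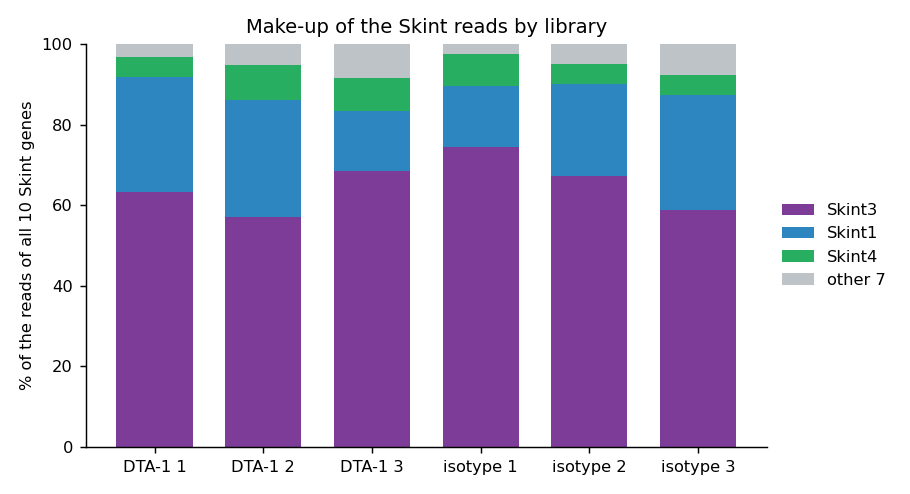
Share of all Skint reads in each library taken by Skint3, Skint1, Skint4 and the other 7 members together, in percent, with the 3 DTA-1 libraries left of the 3 isotype libraries. Skint3 is the largest share in every library, and Skint1 ranges from 14.7% to 29.1% with DTA-1 and from 14.9% to 28.6% with isotype.

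Summed over the 10 genes, the libraries held 183, 151 and 156 Skint reads with DTA-1 and 1044, 640 and 569 with isotype. On the CPM scale the sums were 7.96, 7.11 and 6.67 with DTA-1, against 38.5, 24.1 and 20.5 with isotype. The 3 DTA-1 libraries were close to one another and all below the isotype libraries. The means, 7.25 ± 0.652 CPM with DTA-1 and 27.7 ± 9.50 CPM with isotype (SD, n = 3 each), differed 3.82-fold, a log2 ratio of -1.93.

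Skint genes are known mainly from stratified squamous epithelium and thymus, and the squamous marker lists moved with them between the groups. In bulk tissue, fewer cells of a type and less RNA per cell cannot be told apart. All 11 basal squamous markers had a negative log2 fold change, with a median of -0.95, and so did all 17 esophageal differentiated markers, with a median of -1.20, where 52.9% of all genes tested were below 0 and the median was -0.03. The basal markers summed to 11435, 3385 and 4356 CPM in the DTA-1 libraries, against 17379, 9544 and 4773 CPM in the isotype libraries. The differentiated markers summed to 20438, 6366 and 6275 CPM with DTA-1 and to 20418, 35627 and 40204 CPM with isotype. edgeR called none of either list. At an unadjusted p under 0.05 it had 2 of 11 and 12 of 17 lower with DTA-1, where 7.52% of all genes tested were. DESeq2 called 1 in each list, where it called 1.12% of all its genes in either direction.

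Krt5, a keratin of the basal layer, averaged 1789 ± 1116 CPM with DTA-1 and 3177 ± 1659 CPM with isotype, a log2 fold change of -0.83 ± 0.56. Krt13, a keratin of the layers above it in the esophagus, averaged 5408 ± 4355 CPM with DTA-1 and 15771 ± 5228 CPM with isotype, a log2 fold change of -1.54 ± 0.62. Neither passed edgeR's adjusted threshold (adjusted p = 0.51 for Krt5 and 0.39 for Krt13). The tissue label thus had its defining keratins in every library.

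Set against the reads of both squamous lists together in place of all reads, the groups overlapped. Per 1000000 reads of the basal and differentiated lists together there were 250, 730 and 628 Skint reads in the DTA-1 libraries, against 1018, 534 and 456 in the isotype libraries. DTA-1 replicate 1 was the lowest and isotype replicate 1 the highest, while DTA-1 replicates 2 and 3 lay above isotype replicates 2 and 3. The DTA-1 mean was 536 ± 253 and the isotype mean 670 ± 304 (SD, n = 3 each), a log2 ratio of -0.32. With DTA-1 replicate 1 left out it was 0.02, and with isotype replicate 1 left out it was 0.11. Against the basal list alone it was -1.06, from 696, 2102 and 1532 Skint reads per 1000000 basal reads with DTA-1 and 2214, 2529 and 4301 with isotype. On the basal list the groups did not overlap. Against the differentiated list alone the log2 ratio was -0.26, and the groups overlapped.

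Taken singly, the 3 main members gave the same kind of picture per 1000000 squamous reads. Skint1 had 70.9, 213 and 92.6 with DTA-1 and 152, 123 and 131 with isotype, a log2 ratio of means of -0.11. Skint3 had 158, 416 and 431 with DTA-1 and 759, 359 and 268 with isotype, a ratio of -0.46. For Skint4 the log2 ratio was -0.03, from 12.3 to 62.8 with DTA-1 and 22.5 to 81.9 with isotype. The groups of all 3 members overlapped on this scale. The part that squamous content had in the lower Skint levels was not tested.

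**Figure D3:**
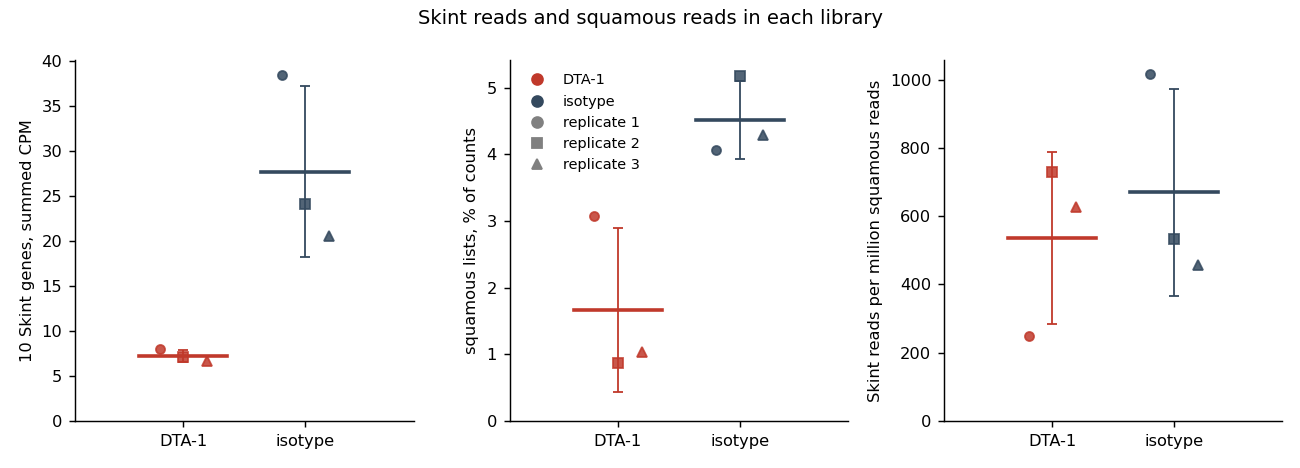
Summed CPM of the 10 Skint genes (left), reads of the squamous marker lists as a percent of all counts (middle) and Skint reads per 1000000 squamous reads (right) in each library; bars are means and whiskers SD (n = 3 each). The groups are apart in the left and middle panels and overlap in the right panel, where DTA-1 replicate 1 is lowest at 250 and isotype replicate 1 highest at 1018.

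Other sources of Skint RNA were looked at through markers of epidermis, hair follicle and thymus. Of 15 epidermal differentiation genes 12 were tested, 10 of them below 0 with a median log2 fold change of -1.51, and their sum ranged from 591 to 1736 CPM with DTA-1 and from 1821 to 4613 CPM with isotype. edgeR called none of them (7 lower at an unadjusted p under 0.05, where 7.52% of all genes tested were). DESeq2 called 3, where it called 1.12% of all its genes in either direction. Asprv1, a protease that processes filaggrin, averaged 134 ± 15.4 CPM with DTA-1 and 554 ± 268 CPM with isotype (log2 fold change -2.05 ± 0.41, edgeR adjusted p = 0.39, DESeq2 adjusted p = 0.0010). Lor, a protein of the cornified envelope, averaged 588 ± 287 CPM with DTA-1 and 2097 ± 1069 CPM with isotype (-1.83 ± 0.58, edgeR adjusted p = 0.39, DESeq2 adjusted p = 0.047), and Cdsn, an adhesion protein of the cornified layer, had a log2 fold change of -1.02 ± 0.40. Krt10, the main keratin of upper epidermis, differed by less than its spread, at 173 ± 108 CPM with DTA-1 and 168 ± 134 CPM with isotype (SD, n = 3 each; log2 fold change 0.05 ± 0.71). Krt2, a keratin of the outer epidermis, had no reads with DTA-1 and 0, 1 and 1 reads with isotype. In the hair follicle list, Krt25, Krt27, Krt28 and Krt71, keratins of the inner root sheath, each had at most 1 read in any library, and only Tchh and Msx2 of the 9 genes found passed the filter. Tchh, a structural protein of the inner root sheath and of some tongue papillae, had 143, 132 and 61 reads with DTA-1 and 909, 500 and 146 with isotype, with overlapping CPM (log2 fold change -1.94 ± 0.67, edgeR adjusted p = 0.39). For Msx2, a transcription factor, the log2 fold change was -1.16 ± 0.39.

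Of the 10 thymic genes, 4 passed the filter and all 4 were below 0, with a median of -0.70. Their list summed to 6.88 to 17.4 CPM with DTA-1 and 12.5 to 20.2 CPM with isotype. Foxn1, a transcription factor of thymic epithelium that keratinocytes also use, averaged 5.95 ± 4.11 CPM with DTA-1 and 8.96 ± 2.04 CPM with isotype (SD, n = 3 each). Prss16, a protease of thymic cortex, had 62, 8 and 14 reads with DTA-1 and 109, 41 and 26 with isotype. Ccl25, a chemokine of thymus and gut, had 54, 32 and 35 reads with DTA-1 and 75, 73 and 67 with isotype, and Ly75, an endocytic receptor of thymic epithelium and dendritic cells, had 34, 32 and 28 with DTA-1 and 72, 91 and 64 with isotype, the groups of both without overlap. The other 6 genes were near 0: Psmb11 of the thymic cortex, Aire of the medulla, and Rag1, Dntt and Ptcra of developing thymocytes had at most 4 reads in any library, and Rag2 had none in all 6. The part of other Skint-bearing cells in the result was not tested.

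Striated muscle markers ran the other way. Of 16 such genes 15 were above 0, with a median log2 fold change of 0.88, and their sums were 124820, 180740 and 134110 CPM with DTA-1 against 75500, 56716 and 119090 CPM with isotype. The groups of the sum did not overlap, and edgeR called none of the 16 (4 at an unadjusted p under 0.05, where 5.21% of all genes tested were higher). The part of muscle content in the Skint result was not tested.

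The receptor genes of gamma-delta T cells, the cells that Skint1 helps to select, were sparse. Of 14 genes found, 3 passed the filter and all 3 were below 0, with a median log2 fold change of -1.35. Among all genes tested, 52.9% were below 0. Of the 3, Tcrg-C1 and Trdv4 passed only through their isotype levels, so the filter itself favoured a lower value with DTA-1. Tcrg-C1, a constant segment of the gamma chain, had 12, 9 and 5 reads with DTA-1 and 23, 43 and 32 with isotype. Its groups did not overlap, and its log2 fold change of -1.63 ± 0.48 was not called by edgeR (adjusted p = 0.39). Trdc, the constant segment of the delta chain, had 49, 58 and 44 reads with DTA-1 and 58, 114 and 73 with isotype, a log2 fold change of -0.43 ± 0.38.

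The variable segments used by dendritic epidermal T cells of mouse skin are Trdv4 and Tcrg-V5. Trdv4 had 11, 4 and 2 reads with DTA-1 and 12, 17 and 24 with isotype. Tcrg-V5 had no reads with DTA-1 and 0, 2 and 4 reads with isotype. For both segments the groups overlapped, with DTA-1 replicate 1 above isotype replicate 1 in Trdv4 CPM. Tcrg-V7 and Trdv2-2 had no reads in any library.

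Among 18 genes linked to intraepithelial gamma-delta T cells, 12 were tested, 9 of them below 0 with a median of -0.96. Egr3, a transcription factor induced by receptor signals and tied to the selection of epidermal T cells by Skint1 in mice, averaged 3.43 ± 2.04 CPM with DTA-1 and 8.63 ± 4.39 CPM with isotype (SD, n = 3 each; log2 fold change -1.33 ± 0.59, edgeR adjusted p = 0.40). Klrk1, which encodes the NKG2D receptor, had 6, 2 and 4 reads with DTA-1 and 11, 16 and 9 with isotype. edgeR called none of the 12.

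T cell genes in general were lower as well, with 10 of 10 tested genes below 0 and a median log2 fold change of -0.75. Among all genes tested, 52.9% were below 0. Cd3e, a chain of the T cell receptor complex, had 14, 9 and 5 reads with DTA-1 and 33, 36 and 19 with isotype, without overlap (log2 fold change -1.38 ± 0.51, edgeR adjusted p = 0.39). Cd3e had the lowest fold change of the 10, was the only 1 without overlap, and passed the filter only through its isotype levels. The most abundant tested genes of the list, Cd5, Trbc2 and Cd2, had log2 fold changes of -1.26 ± 0.58, -0.62 ± 0.58 and -0.26 ± 0.57. The summed T cell level was 9.88 to 14.9 CPM with DTA-1 and 13.3 to 30.5 CPM with isotype. edgeR called none of the 10.

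Of the epithelial ligands that gamma-delta T cells read, 11 genes were tested and 9 were below 0, with a median of -0.69. Cdh1, the E-cadherin that anchors intraepithelial T cells, averaged 134 ± 81.3 CPM with DTA-1 and 303 ± 83.2 CPM with isotype (log2 fold change -1.17 ± 0.43). Cxadr, the ligand of the co-receptor Jaml, averaged 25.7 ± 10.1 CPM with DTA-1 and 51.1 ± 5.70 CPM with isotype (-0.99 ± 0.28), and its groups did not overlap. Plxnb2, the ligand of CD100 on those cells, had a log2 fold change of -0.69 ± 0.27, and Il15, a growth factor for them, of -0.43 ± 0.34. edgeR called none of the 11 (4 lower at an unadjusted p under 0.05, where 7.52% of all genes tested were).

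The rest of the butyrophilin family was hardly read. Of 11 such genes only Btnl9, a member best known from fat and blood vessels, passed the filter. It had 30, 73 and 129 reads with DTA-1 and 9, 80 and 29 with isotype, with a log2 fold change of 1.22 ± 0.83 and overlapping groups (edgeR adjusted p = 0.51). Skint11, the closest relative outside the 10 genes, had 1 read in isotype replicate 3 and none elsewhere, and Btnl6 had none in any library.

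**Figure D4:**
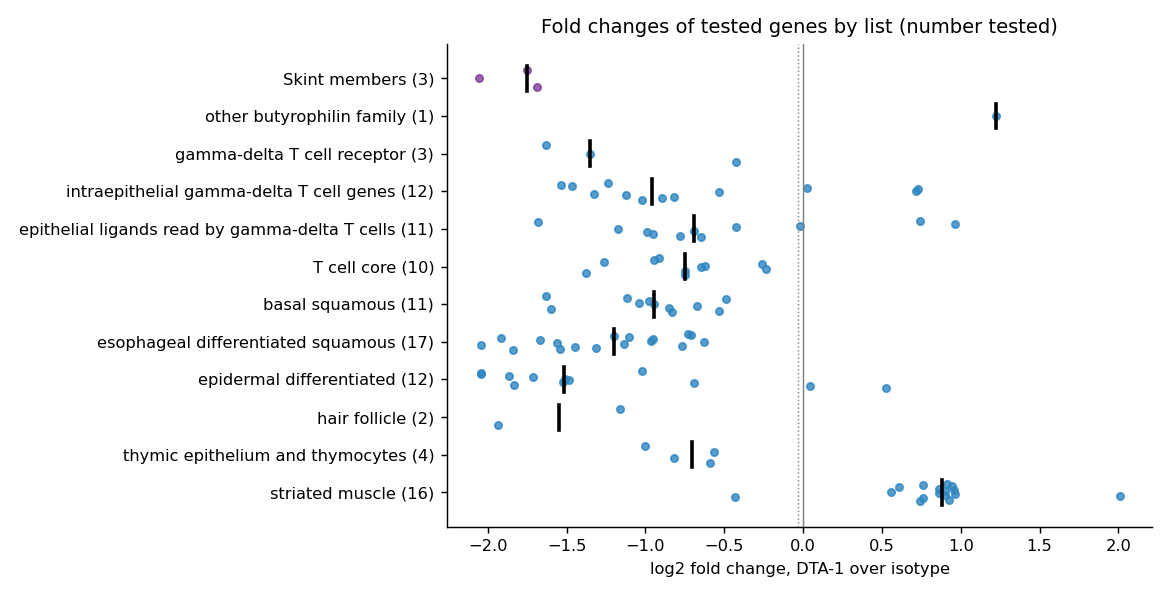
Log2 fold change (DTA-1 over isotype, edgeR) of each tested gene in the marker lists, 1 row per list; points are genes and the thick line is the list's median. The dotted line is the median of all genes tested (-0.03). The tested Skint, basal and esophageal squamous, core T cell and gamma-delta receptor genes all lie below 0, while 15 of 16 striated muscle genes lie above it. Some of the genes below 0 passed the filter only through their isotype levels.

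The genes on either side of the cluster differed from one another. Slc5a9, a sodium-coupled sugar transporter gene that lies 16474 bases before Skint8, had 11.3, 7.77 and 5.60 CPM with DTA-1, against 23.3, 34.0 and 23.6 CPM with isotype. Its groups did not overlap, and its log2 fold change was -1.71 ± 0.31 (edgeR adjusted p = 0.39). Spata6, the next gene out, had a log2 fold change of -0.29 ± 0.21, and Trabd2b, 407221 bases beyond Skint5, one of 0.40 ± 0.23. Neither was called by edgeR (adjusted p = 0.53 and 0.45). The next protein-coding gene beyond that, Gm12830, had 1 read in all. Of 12 other annotated genes inside the cluster, 3 had a read, with 9 reads in all.

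**Figure D5:**
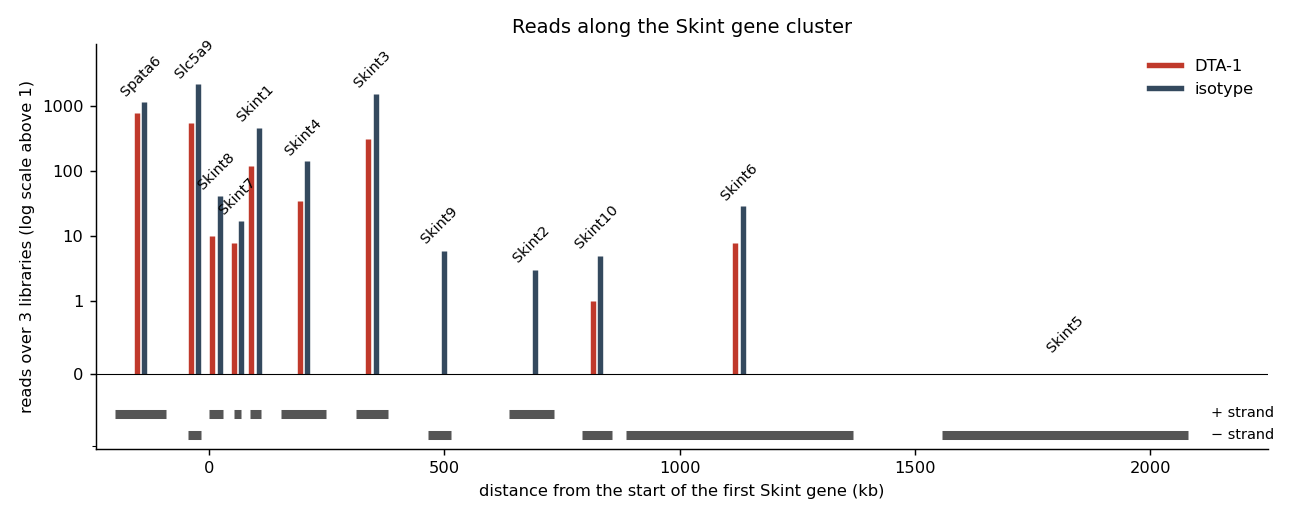
Raw reads summed over the 3 libraries of each group for the Skint genes and for Slc5a9 and Spata6, on an axis that is linear up to 1 read and logarithmic above it, against distance in kilobases from the start of the first Skint gene; DTA-1 is left of isotype in each pair and dark bars show gene extents by strand. Skint3 has most Skint reads, 309 with DTA-1 and 1542 with isotype, and Skint5, at the far end, has none.

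The genes whose log2 CPM followed the summed Skint level most closely over the 6 libraries were Siglece (Pearson r = 0.998), Efnb2 (0.996), Vamp8 (0.994), Fcho1 (0.993), Cxcr2 (0.993), Qsox1 (0.988), Gpnmb (0.985) and Fam107b (0.982). With 6 libraries in 2 groups, 295 of 15760 other genes, or 1.87%, had an r above 0.9, so such values are a description of likeness. Each point is 1 library, so depth, treatment group and tissue make-up differ from point to point for every gene at once. Siglece, a sialic acid-binding receptor of myeloid cells, had 1.09, 0.989 and 0.856 CPM with DTA-1, against 4.31, 3.17 and 2.56 CPM with isotype, the same order of libraries as the Skint sum. Cxcr2, a chemokine receptor of neutrophils, averaged 1.85 ± 0.199 CPM with DTA-1 and 6.65 ± 2.92 CPM with isotype (SD over 3 libraries each).

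By the same measure the lists were spread widely. The median r was 0.72 over both the 11 basal and the 17 differentiated squamous genes, 0.59 over 12 epidermal genes, 0.83 over 2 hair follicle genes and 0.75 over 4 thymic genes. It was 0.67 over 3 gamma-delta receptor genes, 0.54 over 12 intraepithelial genes, 0.52 over 11 epithelial ligands, 0.48 over 10 T cell genes, -0.71 for Btnl9 and -0.77 over 16 striated muscle genes, against 0.05 over all other genes tested. The highest r in the differentiated squamous list was 0.917 and in the basal list 0.861. All of these values are over the same 6 libraries.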

How the data were processed

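Whole-number read counts per Ensembl gene were deposited by the authors for 6 libraries, 3 per group, and carry no normalization. The submitters' processing notes name build mm10 and the tools STAR, cutadapt 1.13, DESeq2 1.14.1 and HTSeq 0.6.1p1, and no source used here gives their settings. Of 54232 gene IDs, 54165 had a GENCODE M21 gene model and 153 had no symbol. Every pair of libraries differed by more than sampling noise (smallest median chi-square per gene 3.98, against 0.455 for noise).

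In R 4.3.3, edgeR 4.0.16 kept 15763 genes by filterByExpr (count of 10, total of 15), scaled them by TMM and fitted treatment alone in its quasi-likelihood test with robust dispersions; p-values were adjusted by Benjamini-Hochberg over all of them, with a threshold of 0.05. A gene could pass the filter on the levels of either group alone. CPM values use TMM-scaled sizes, and levels per kilobase use exon length. Intervals of pooled ratios are exact binomial at 95%. Alternatives were DESeq2 1.42.0, limma-voom (limma 3.58.1), other scalings, no filter, a stricter filter (20 counts in 3 libraries), a replicate block, and each library left out. Of these steps, only the edgeR fit was tested on simulated counts.

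The members and lists were chosen with earlier results of these data known. Genes named came from all 10 members, the 3 most abundant tested genes of each list, a set taken whatever their values (Trdc, Trdv4, Tcrg-V5, Tcrg-C1, Krt5, Krt13, Krt10, Cdh1, Il15, Klrk1, Egr3, Sox13, Cd3e and Foxn1), the 2 nearest protein-coding genes on each side, and the 8 genes with the highest likeness; further list genes at or near 0 reads were named after their values were seen. A gene picked by this rule is left out of the text and not reported here.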

Additional observations from a re-analysis of the deposited data

How the results depend on the processing

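Over the scalings, filters, tests and left-out libraries tried, the log2 fold changes stayed negative for Skint1 (-1.90 to -1.40), Skint3 (-2.27 to -1.62) and Skint4 (highest -1.05, without isotype replicate 1), and the log2 ratio of the Skint sum ran from -2.11 to -1.61. Leaving out 1 library at a time gave -2.09 to -1.61 for the sum, 8 to 9 members with a lower mean in DTA-1, and -0.61 to 0.11 for the ratio per 1000000 squamous reads, which turned positive when DTA-1 replicate 1 (0.02) or isotype replicate 1 (0.11) was left out. That ratio was -1.06 on the basal list alone. The cause of these shifts was not tested.

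Across all genes edgeR called 0, with 0 to 601 when 1 library was left out. The 601 came without DTA-1 replicate 1 (62 higher, 539 lower), and DESeq2 called 180 (43 higher, 137 lower); limma-voom called 0 (2172 at an unadjusted p under 0.05). On library totals alone the median of all genes moved to -0.19, from -0.03 under TMM, and the split at an unadjusted p under 0.05 was 439 higher and 1870 lower, against 821 and 1185.

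The replicate numbers did not pair the libraries: deviations of same-numbered libraries correlated at 0.017, -0.33 and -0.086, and over all numbers 1 of 6 libraries correlated best with its own. With the replicate block edgeR called 0 genes (1632 at an unadjusted p under 0.05), and the log2 fold changes were -1.76 for Skint1, -1.97 for Skint3 and -1.57 for Skint4. The 7 members with few reads gave at most 21 reads each per library, which limits the precision of their ratios.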
